A study of Rattus norvegicus with 32 samples.

Results

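The genes described here are the leukocyte surface antigens, histocompatibility molecules and Fc receptors of the rat lung array, followed from 1 h to 72 h after hemorrhage. They were taken by gene symbol: every symbol that begins with Cd and a digit, with RT1, with Fcer, with Fcgr or with Klr, together with B2m. The pattern found 66 of the 5022 genes that carry a single symbol on the array. Cd81, Cd8a, Cd36, Fcgr2a, Klrd1 and Klra22 were left out by the rule, which leaves 60 genes. In each group, every one of the 60 had values from 2 or more arrays, as the test required.

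Each of 32 arrays compared the RNA of 1 rat lung with a pool of RNA from the organs of untreated rats (brain, heart, jejunum, kidney, liver, lung, skin, spleen and skeletal muscle are named), so each value is a log2 ratio of lung to pool, with the median of its array set to 0. The animals were male Sprague-Dawley rats of 280 to 300 g, whose age is not given. Control rats (3 arrays) carried no catheter and were not handled. Sham rats (6 arrays) carried 2 arterial catheters and a telemetry device and recovered for 7 to 10 days, but lost no blood. Their labels give no time that matches each bleeding group. The bled rats carried the same devices, recovered for 7 to 10 days, lost 40% of their estimated blood volume, and were killed within the first day, at 1, 3, 6 and 16 h, or later, at 24, 48 and 72 h (3 arrays each, 5 at 6 h). The labels do not say that each array is a different animal, so p-values measure the spread between these arrays. One sham array (replicate 2) and one 16 h array (replicate 3) were left out, which leaves 30. Their median over 16 liver genes was 3.15 and 2.91, against -1.37 to 0.29 on the others, and their median over 10 lung epithelial genes was -0.97 and 0.54, against 0.90 to 2.58. Surfactant protein C (Sftpc) stood at 3.08 ± 0.24 (SE) in unbled lungs, and 7 of the 10 epithelial genes were above the pool.

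MHC class I molecules carry peptides from inside the cell to cytotoxic T cells and need the light chain β2-microglobulin, the product of B2m, to reach the surface. Class II molecules, which in the rat are encoded like class I by the RT1 complex, carry peptides from engulfed material to helper T cells and are guided by the invariant chain Cd74. Fc receptors read antibody bound to a target, and killer lectin-like receptors on natural killer cells read class I molecules and stress ligands. The lung holds all of these cells, in its alveoli, its capillaries and its interstitium. In whole lung, fewer cells of a type and less RNA per cell cannot be told apart.

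The promoters of the MHC genes share an element that the choice of genes by symbol did not use. RefSeq promoter windows of 300 bases (250 before and 50 after the annotated start, build GRCr8) were found for 47 of the 60 genes. GATTGG, the core of the Y box bound by NF-Y, was searched on both strands. It lies in the windows of 12 of 13 MHC genes with a window (all but Cd74), in 14 of the 47 genes (29.8%) and in 14.8% of all 33469 windows. The remaining genes with it are Cd53 and Cd46. The core of interferon response elements, which is GAAA, any 2 bases and GAAA again, was searched in the same way. It lies in 8 of the 47 windows, B2m, RT1-N3 and RT1-S3 among them, and in 3.92% of all windows. TATAAA lies in 6 of the 47 and in 14.2% of all. The 4 windows below belong to the MHC genes that passed a test between lung groups. Capitals mark the GATTGG core, which reads CCAATC where it lies on the other strand, and in B2m also the interferon core.
B2m (GRCr8, chr3:129549080-129549379, plus strand): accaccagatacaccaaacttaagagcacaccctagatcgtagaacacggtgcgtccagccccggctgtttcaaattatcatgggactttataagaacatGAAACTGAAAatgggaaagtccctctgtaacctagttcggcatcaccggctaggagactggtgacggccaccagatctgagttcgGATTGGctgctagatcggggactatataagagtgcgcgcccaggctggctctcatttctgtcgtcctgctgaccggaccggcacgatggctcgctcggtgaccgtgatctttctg
RT1-CE15 (GRCr8, chr20:3283721-3284020, minus strand): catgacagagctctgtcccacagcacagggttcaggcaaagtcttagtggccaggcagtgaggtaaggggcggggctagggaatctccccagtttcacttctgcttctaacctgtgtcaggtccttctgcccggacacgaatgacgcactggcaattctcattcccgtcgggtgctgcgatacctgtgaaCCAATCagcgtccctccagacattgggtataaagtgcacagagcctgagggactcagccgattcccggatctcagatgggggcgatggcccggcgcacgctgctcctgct
RT1-M3-1 (GRCr8, chr20:1333317-1333616, minus strand): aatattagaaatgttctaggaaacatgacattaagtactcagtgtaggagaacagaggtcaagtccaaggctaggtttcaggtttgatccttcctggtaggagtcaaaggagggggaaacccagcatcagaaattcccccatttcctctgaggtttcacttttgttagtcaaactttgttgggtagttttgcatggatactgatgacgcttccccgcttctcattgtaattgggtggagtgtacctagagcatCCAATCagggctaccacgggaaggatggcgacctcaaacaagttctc
RT1-Db1 (GRCr8, chr20:4560113-4560412, minus strand): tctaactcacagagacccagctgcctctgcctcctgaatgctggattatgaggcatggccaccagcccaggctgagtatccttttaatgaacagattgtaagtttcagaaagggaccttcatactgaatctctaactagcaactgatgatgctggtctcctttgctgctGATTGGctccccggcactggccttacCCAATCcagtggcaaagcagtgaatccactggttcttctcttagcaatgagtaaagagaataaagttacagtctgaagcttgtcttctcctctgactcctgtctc
The core begins at position -65 from the start in B2m, at -60 in RT1-CE15, at 4 in RT1-M3-1, and at -81 and -55 in RT1-Db1, counted on the strand of the gene. The start meant is the one each window is built on. In these genes it lies inside the annotated span of the gene and not at its edge. The interferon core of B2m begins at -150. A match describes the letters of a window and is no evidence that a factor binds there.

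**Figure D1:**
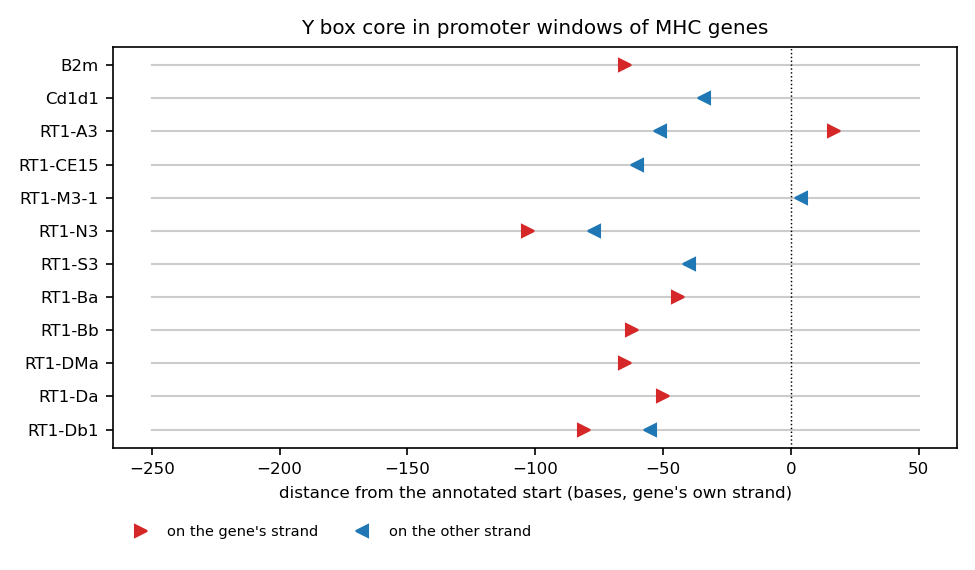
Positions of GATTGG on either strand in the promoter windows of the 12 MHC genes that hold it. The horizontal axis is the distance in bases from the annotated start, grey lines are the windows, and triangles give the first base and the strand of each match. The matches of B2m and RT1-DMa both begin at -65, and those of RT1-M3-1 (4) and 1 of the matches of RT1-A3 (17) lie after the start.

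In unbled lung, 8 of 14 MHC genes were higher than the organ pool and none lower, while 4 of 9 killer lectin and 2 of 4 Fc receptors were lower. Unbled lung is the mean of the control and sham group means, tested against 0 with limma, and a gene was called where its p, adjusted over all 5993 features tested, was under 0.05. Of the 60 genes, 25 were called higher and 9 lower, which is 56.7% of them, against 55.4% of all features. The share called is thus close to that of the array. By direction, 1584 of all 5993 features were called higher and 1738 lower. B2m stood highest at 1.43 ± 0.24 (SE), followed by Cd59b, an inhibitor of the complement attack complex, at 1.16 ± 0.18, and Cd93, a receptor of endothelium and myeloid cells, at 1.10 ± 0.16. The lowest were 2 activating receptors of natural killer cells, Klrk1 (NKG2D) at -1.62 ± 0.28 and Klrc2 at -1.55 ± 0.32, and the complement regulator Cd55 at -1.40 ± 0.18. Klrk1 read -4.25 on the first control array and -1.82 to -0.47 on the other unbled arrays, and Klrc2 had no value on the first control array.

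By role, 5 of 7 class I genes and 3 of 7 class II genes were higher than the pool and none lower. The class II chains RT1-Da (0.47 ± 0.19), RT1-Db1 (0.42 ± 0.11) and Cd74 (0.45 ± 0.13) were the ones called. Probes of 1 gene differed here. Of the 3 probes of RT1-Db1, 1 was called (0.90) and the others (0.14 and 0.23) were not, and RT1-Bb, whose mean was not called, had 1 probe called lower (-0.65) and 1 called higher (0.48). Of 9 killer lectin receptors, 4 were lower and 1, Klrb1b, was higher (1.01 ± 0.18). Of 4 Fc receptors, Fcer1a, the IgE-binding chain of the mast cell receptor, was lower (-1.08 ± 0.23), as was the inhibitory IgG receptor Fcgr2b (-0.93 ± 0.31). Of 11 T cell antigens, 5 were higher and Cd2 was lower, with Cd96 (0.90 ± 0.15) and Cd48 (0.79 ± 0.12) the highest. None of the 3 B cell antigens was called. The role counts rest on few genes and were not tested against the 1584 higher and 1738 lower calls of all 5993 features. The pool contains spleen, so a ratio below 0 does not say that a gene is silent in lung.

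**Figure D2:**
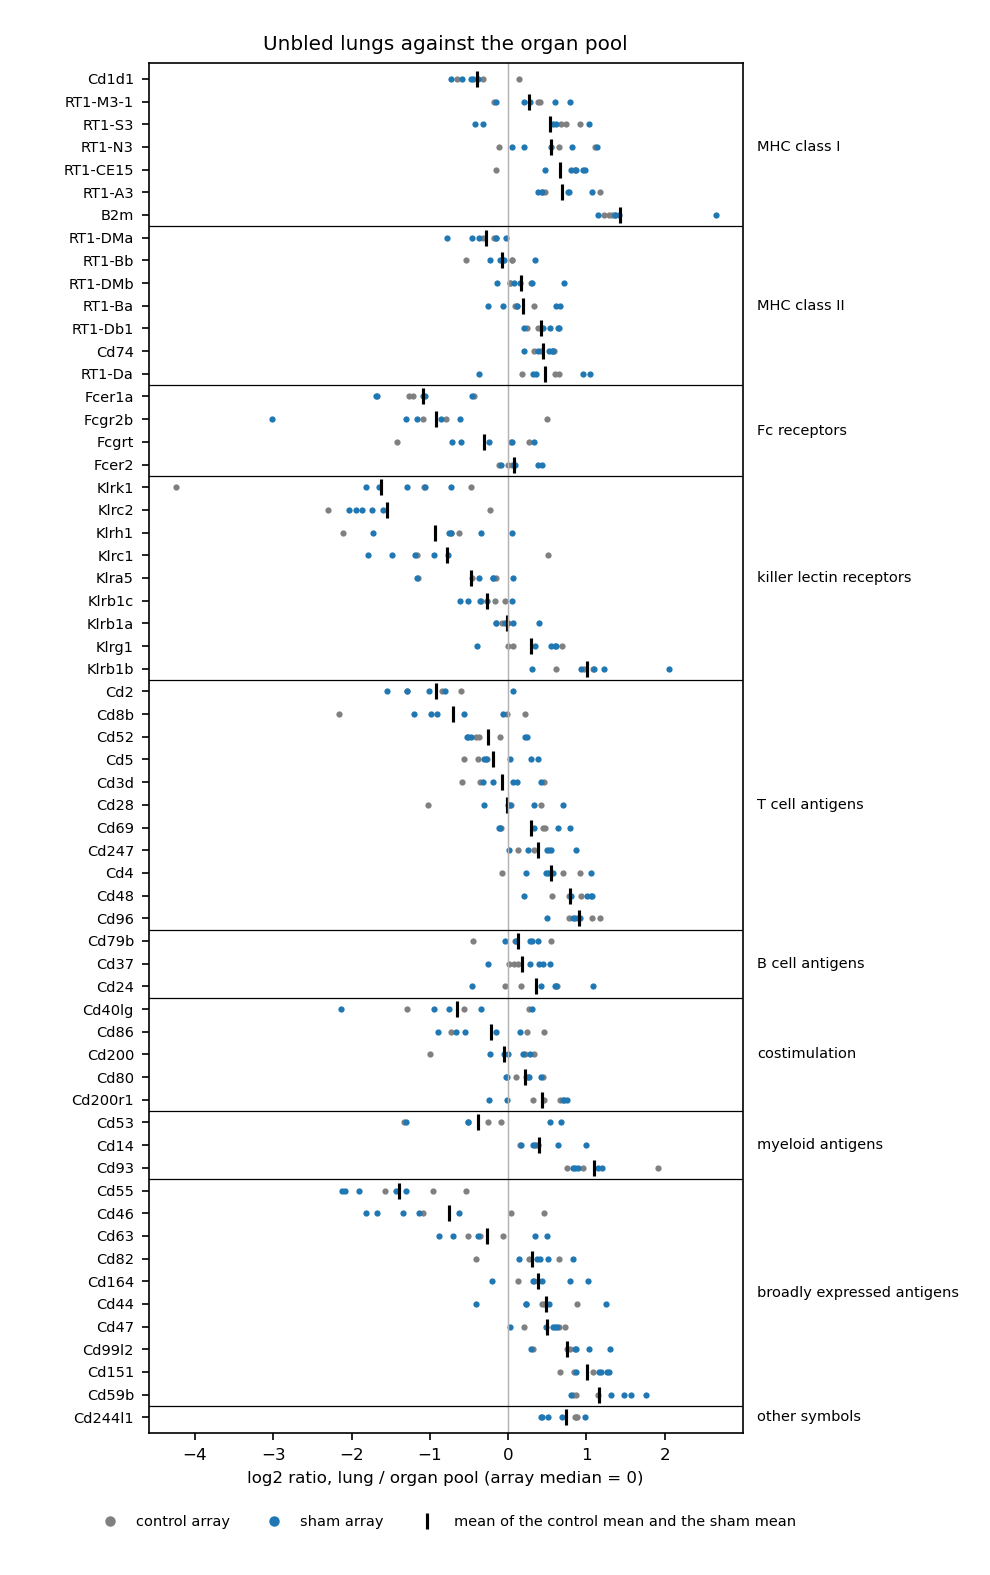
Log2 ratio of lung to organ pool in unbled lungs for the 60 genes, grouped by role. Each dot is a control array (grey, 3) or a sham array (blue, 5) and the bar is the mean of the control mean and the sham mean. B2m lies farthest to the right at 1.43 and Klrk1 farthest to the left at -1.62.

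Between lung groups, few of the 60 genes passed the test. Each time was compared with sham. No gene was called at 1 h, at 6 h, at 16 h or at 48 h, where 0.0%, 0.0%, 0.0667% and 1.17% of all features were called. Unadjusted p was under 0.05 for 1, 8, 12 and 12 of the 60 genes and for 645, 1119, 837 and 973 of all features at those times by limma. At 3 h, 2 genes were called (2.8% of all features), at 24 h 2 genes (3.55%) and at 72 h 4 genes (5.91%). The joint test for a change at any time called 4 genes (5.69%), and the mean of all 7 times against sham called none (3.42%; unadjusted p was under 0.05 for 14 genes and 1378 features by limma). Early lungs (1, 3 and 6 h, averaged) set against late lungs (24, 48 and 72 h, averaged) gave 3 called genes (7.04%). Sham against control called none of the genes and none of the features (0.0%; unadjusted p under 0.05 for 0 genes and 282 features by limma). The counts of called genes lie near the background in each comparison.

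The median difference from sham over the 60 genes was -0.02 at 1 h, 0.06 at 3 h, -0.01 at 6 h, -0.0015 at 16 h, -0.06 at 24 h, -0.07 at 48 h and 0.06 at 72 h, against -0.01, 0.0149, 0.02, 0.04, 0.04, 0.0046 and 0.02 over all features. The sign of the medians at 3 h and at 6 h changed with the scaling of the arrays. Without centring, the median of the set at 24 h was -0.24, with 19 of the 60 genes above 0 in place of 28, and that of all features was -0.15. In all, 10 genes passed in at least 1 comparison between lung groups, with 15 calls. With both left-out arrays put back, 6 of the 15 calls held, namely B2m and Cd53 in the joint test, Cd53 and Cd55 at 72 h, and B2m and Klrh1 early against late. Without centring, the joint call of RT1-Db1 was lost. After quantile normalization, the calls of RT1-M3-1 at 3 h, of RT1-Db1 in the joint test and of Cd151 early against late were lost. With no filter on missing values, those of Klrh1 at 3 h and of Cd53 in the joint test were lost. The comparisons with sham share the same 5 sham arrays.

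**Figure D3:**
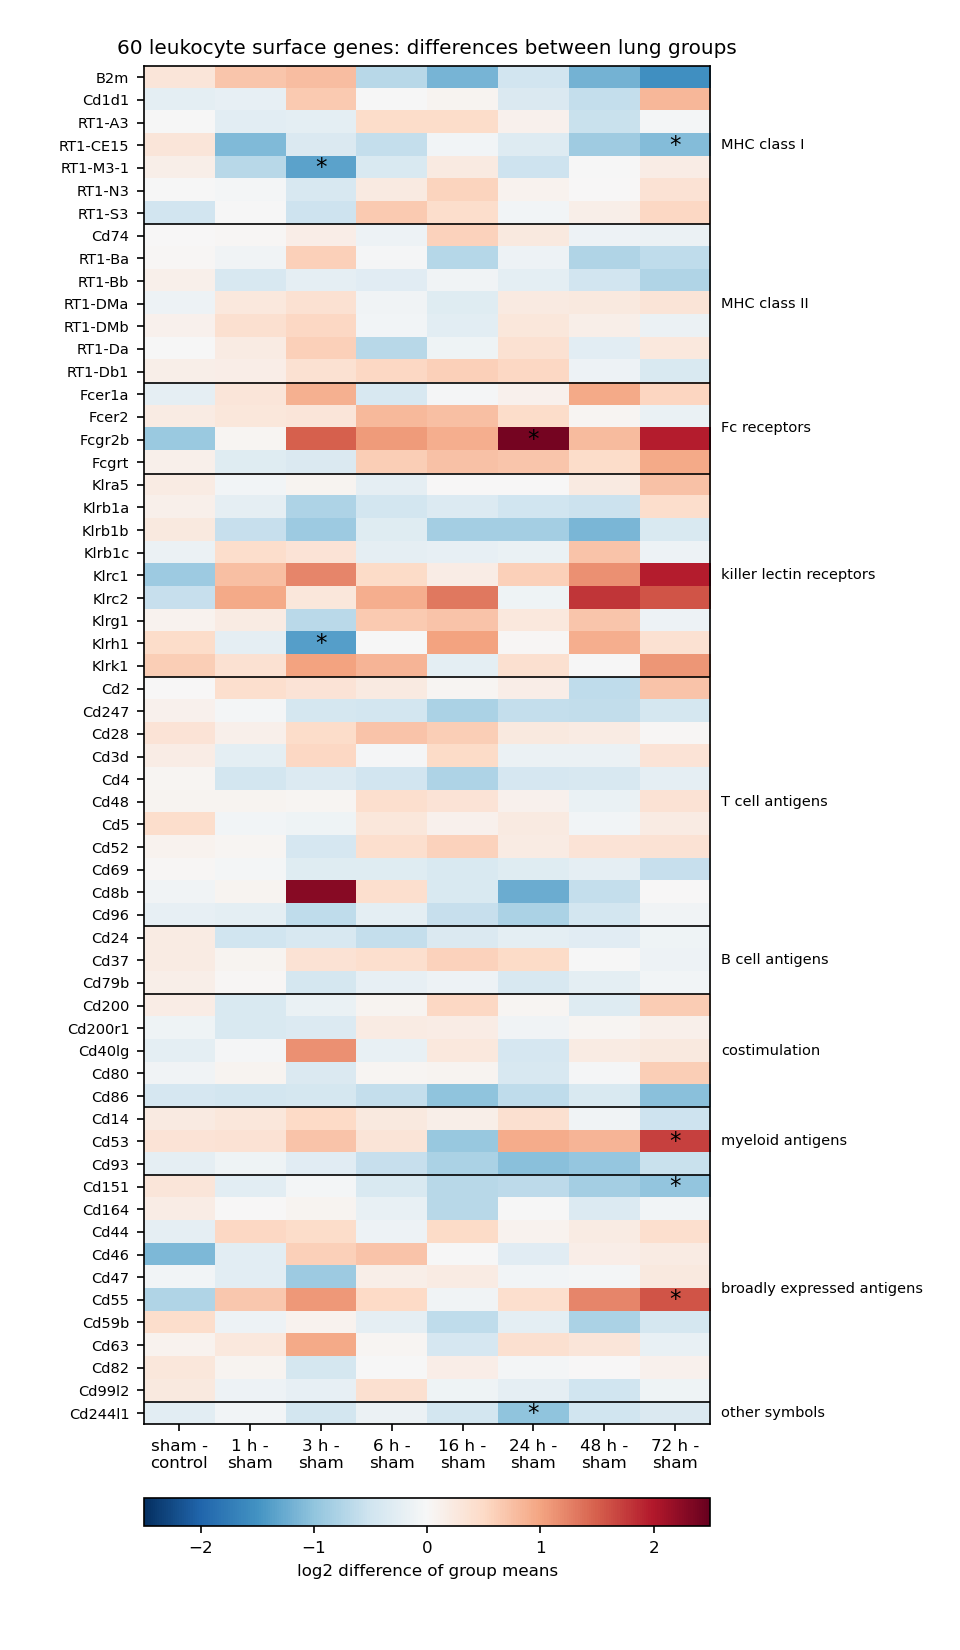
Differences of group means on the log2 scale for the 60 genes (rows, by role): sham minus control, and each time after hemorrhage minus sham (columns). Red is higher, blue is lower, and stars mark the 8 differences with an adjusted p under 0.05, which lie at 3 h (Klrh1, RT1-M3-1), 24 h (Fcgr2b, Cd244l1) and 72 h (RT1-CE15, Cd53, Cd55, Cd151).

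Among the class I genes, the light chain B2m was higher at 1 h and 3 h than at the later times, 6 h included. Its log2 ratio was 1.33, 1.22 and 1.28 on the control arrays, and 1.42, 1.36, 2.65, 1.14 and 1.37 on the sham arrays. It was 2.14, 2.19 and 2.53 at 1 h, 1.96, 2.41 and 2.72 at 3 h, and 1.02, 0.66, 1.47, 0.13 and 1.17 at 6 h. All arrays of 1 h and 3 h exceeded all control arrays, and all sham arrays except replicate 4. Later values were -0.04 and 0.89 at 16 h, 1.73, -0.18 and 1.77 at 24 h, 0.34, 1.64 and -0.77 at 48 h, and -0.51, 1.05 and -0.36 at 72 h. All arrays of 16 h and 72 h lay below all sham and control arrays, while those of 24 h and 48 h were widely spread. The early mean exceeded the late mean by 1.32 ± 0.30 (SE; adjusted p = 0.0111), and the call held in each of 20 fits that left out 1 array (1.11 to 1.53; highest adjusted p 0.0270). The joint test was also passed (adjusted p = 0.0308), but not without the third array of 1 h or of 72 h (up to 0.0725). No single time passed against sham. The early mean includes 6 h, where B2m lay below sham (-0.70 ± 0.42, adjusted p = 0.359), as it did at 24 h (-0.48 ± 0.48, adjusted p = 0.628). The difference at 72 h was -1.53 ± 0.48 (adjusted p = 0.0581), and the difference at 3 h was 0.78 ± 0.48 (adjusted p = 0.338).

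RT1-CE15, a class I heavy chain gene, fell at 72 h. Its ratio was 0.86, 0.85 and -0.15 in controls, 0.95, 0.47, 0.98, 0.86 and 0.80 in sham lungs, and 0.15, -0.50 and -0.49 at 72 h. All 72 h arrays lay below all sham arrays, a difference of -1.09 ± 0.30 (adjusted p = 0.0366). This call was lost in 6 of 8 fits without 1 array, namely without sham replicate 1, 4, 5 or 6 or the second or the third 72 h array (up to 0.188). The 1 h arrays (-0.44, -0.29 and -0.13) and the 48 h arrays (-0.27, 0.22 and -0.17) also lay below all sham arrays. The differences there were -1.10 ± 0.30 (adjusted p = 0.240) and -0.88 ± 0.30 (adjusted p = 0.147). At 1 h, 48 h and 72 h the arrays overlapped those of control, of which 1 read -0.15. At 3 h, 6 h, 16 h and 24 h they overlapped those of sham (-0.60 ± 0.26 at 6 h, adjusted p = 0.227).

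RT1-M3-1, a nonclassical class I gene, fell at 3 h. It read 0.28, 0.20, -0.16, 0.79 and 0.60 in sham lungs and -0.61, -0.14 and -2.23 at 3 h, so the first and the third 3 h arrays lay below all sham arrays and the second did not. The difference was -1.34 ± 0.36 (adjusted p = 0.0428). Without the third 3 h array it was -0.72 (adjusted p = 0.145), and the call was also lost without sham replicate 1, 3, 5 or 6. The remaining class I genes, RT1-A3, RT1-N3, RT1-S3 and the lipid-presenting Cd1d1, were called at no time. Their differences from sham ranged from -0.59 (Cd1d1 at 48 h) to 0.84 (Cd1d1 at 72 h). RT1 class I genes are close relatives, and a cDNA spot may bind the RNA of more than 1 of them, so which member moved is uncertain. RT1-A3 itself was read by 2 probes, which differed in sign at 72 h (-0.43 and 0.34).

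**Figure D4:**
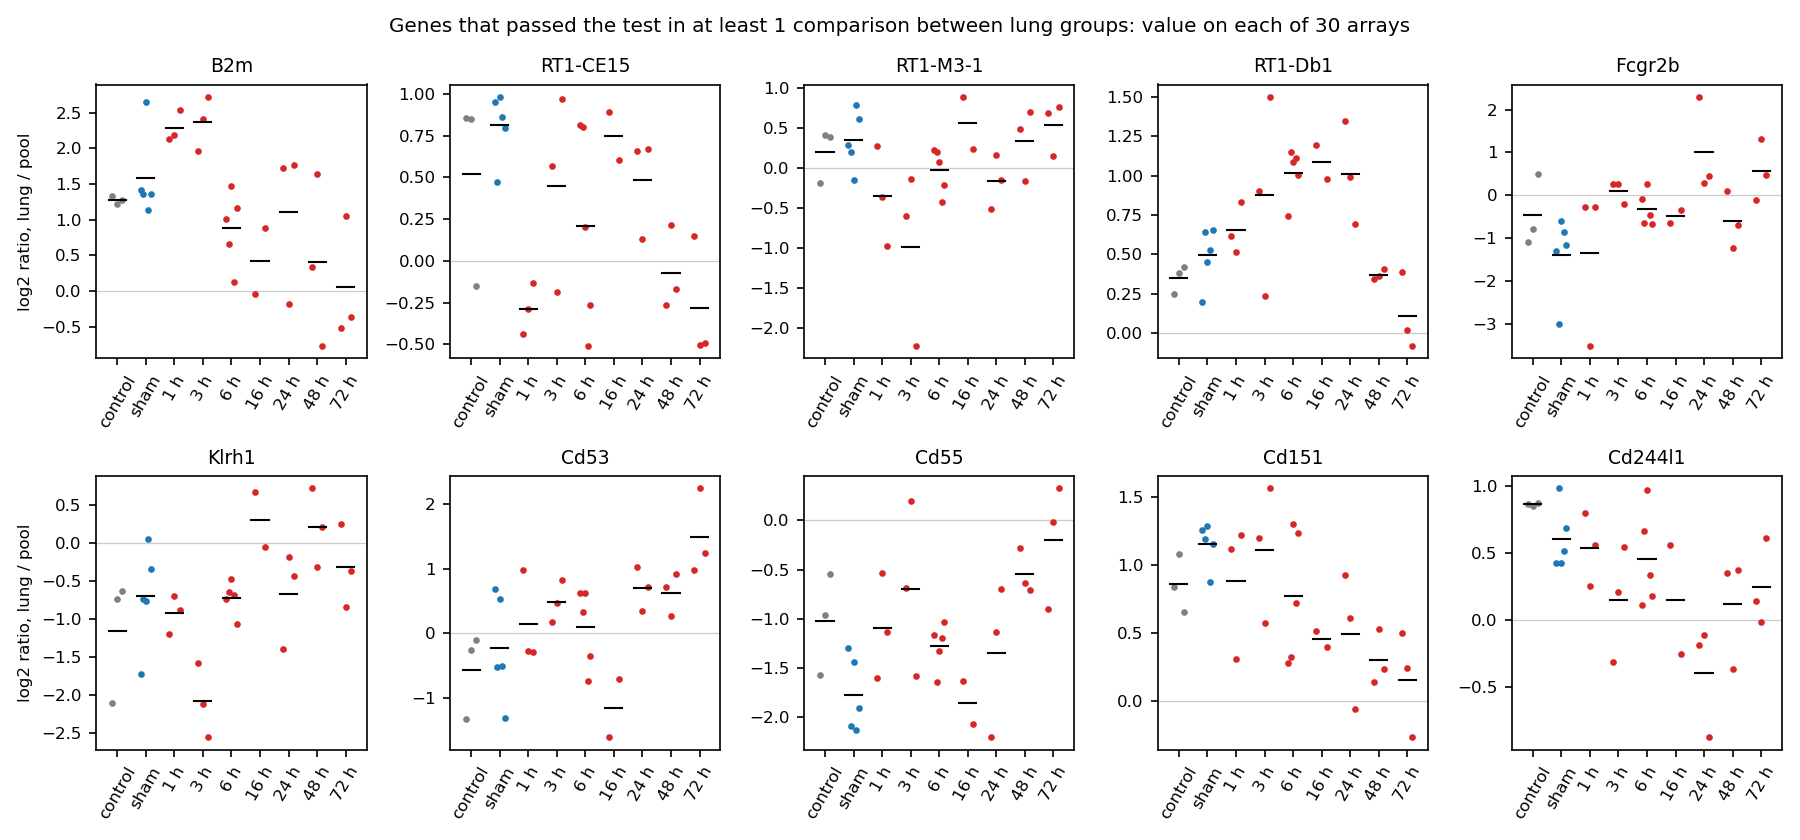
Log2 ratio of lung to pool on each of 30 arrays (dots) for the 10 genes that passed a test between lung groups, with group means as bars. Grey dots are control arrays, blue dots sham arrays and red dots arrays after hemorrhage; the vertical axis differs between panels. B2m lies between 1.96 and 2.72 at 1 h and 3 h and between -0.51 and 1.05 at 72 h.

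Among the class II genes, RT1-Db1, a β chain, stood above sham in the middle of the series and returned by 48 h. Its ratio was 0.25, 0.38 and 0.42 in controls and 0.20, 0.64, 0.45, 0.53 and 0.65 in sham lungs. It was 0.75, 1.15, 1.08, 1.11 and 1.00 at 6 h, 1.19 and 0.98 at 16 h, and 1.35, 0.99 and 0.69 at 24 h. Every array of these 3 times lay above every sham and control array. The 48 h values were 0.35, 0.36 and 0.40 and the 72 h values 0.39, 0.02 and -0.08, within or below the sham range. The joint test was passed (adjusted p = 0.0440), no single time was (0.53 ± 0.19 at 6 h, adjusted p = 0.153), and the joint call was lost in 18 of 27 fits that left out 1 array, each sham array but replicate 4 among them (up to 0.106). RT1-Db1 was read by 3 probes. All 3 were above sham at 6 h (0.73, 0.56 and 0.29), 16 h (0.75, 0.65 and 0.37) and 24 h (0.64, 0.52 and 0.38), and below it at 72 h (-0.31, -0.45 and -0.40). At 3 h they differed, with 0.95, 0.21 and -0.01 (adjusted p = 0.0241, 0.698 and 0.986). The probe that passed at 3 h was also the only one of the 3 to pass the joint test (adjusted p = 0.0122) and early against late (0.55, adjusted p = 0.0195).

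The other class II genes did not share this course. The α chain RT1-Da read 0.30, -0.31, -0.79, -0.76 and 0.39 at 6 h, against 1.04, 0.36, 0.95, -0.37 and 0.32 in sham lungs, a difference of -0.70 ± 0.34 (adjusted p = 0.266). Cd74, the invariant chain, read 1.23 and 0.81 at 16 h, above all sham arrays (0.20 to 0.57), and its difference was 0.57 ± 0.29 (adjusted p = 0.378). RT1-Ba and RT1-Bb, the chains of the other class II molecule, differed from sham at 72 h by -0.63 ± 0.40 and -0.75 ± 0.25 (adjusted p = 0.358 and 0.0709). The 2 probes of RT1-Bb differed in sign at 24 h (0.51 and -0.9961), so its mean is a poor guide there. RT1-DMa and RT1-DMb, which load peptides onto class II, stayed between -0.30 and 0.51 of sham at all 7 times, and neither was called.

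Fcer2 (CD23, the low-affinity IgE receptor) and Cd37, a tetraspanin of B cells, had means above sham at the same times as RT1-Db1. They were singled out after their values were seen. Fcer2 read 0.09, 0.08, -0.09, 0.43 and 0.39 in sham lungs, 0.54, 1.09, 1.04, 1.20 and 1.03 at 6 h, and 1.01 and 0.83 at 16 h. It then read 0.15, 0.23 and 0.32 at 48 h and 0.24, -0.14 and -0.08 at 72 h. Every 6 h and 16 h array lay above every sham array, and the 48 h and 72 h arrays lay near the sham range. The 24 h arrays overlapped those of sham (0.45 ± 0.25, adjusted p = 0.330). The difference at 6 h was 0.80 ± 0.22 (adjusted p = 0.0749) and the joint test gave 0.0715. Cd37 read -0.26 to 0.53 over the sham arrays, with a median of 0.40, and 0.59, 0.77, 0.80, 0.63 and 0.67 at 6 h. It read 0.97 and 0.76 at 16 h, 0.85, 0.75 and 0.65 at 24 h, and 0.11, 0.34 and 0.34 at 48 h. Its difference was 0.58 ± 0.21 at 16 h (adjusted p = 0.216) and its joint test gave 0.072. The B cell receptor chain Cd79b did not follow them, with -0.20 ± 0.21 at 6 h and -0.13 ± 0.28 at 16 h (adjusted p = 0.620 and 0.875). Nor did Cd24, the remaining B cell antigen. It differed by -0.59 ± 0.34 at 6 h, -0.36 ± 0.46 at 16 h and -0.25 ± 0.40 at 24 h (adjusted p = 0.344, 0.751 and 0.774).

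**Figure D5:**
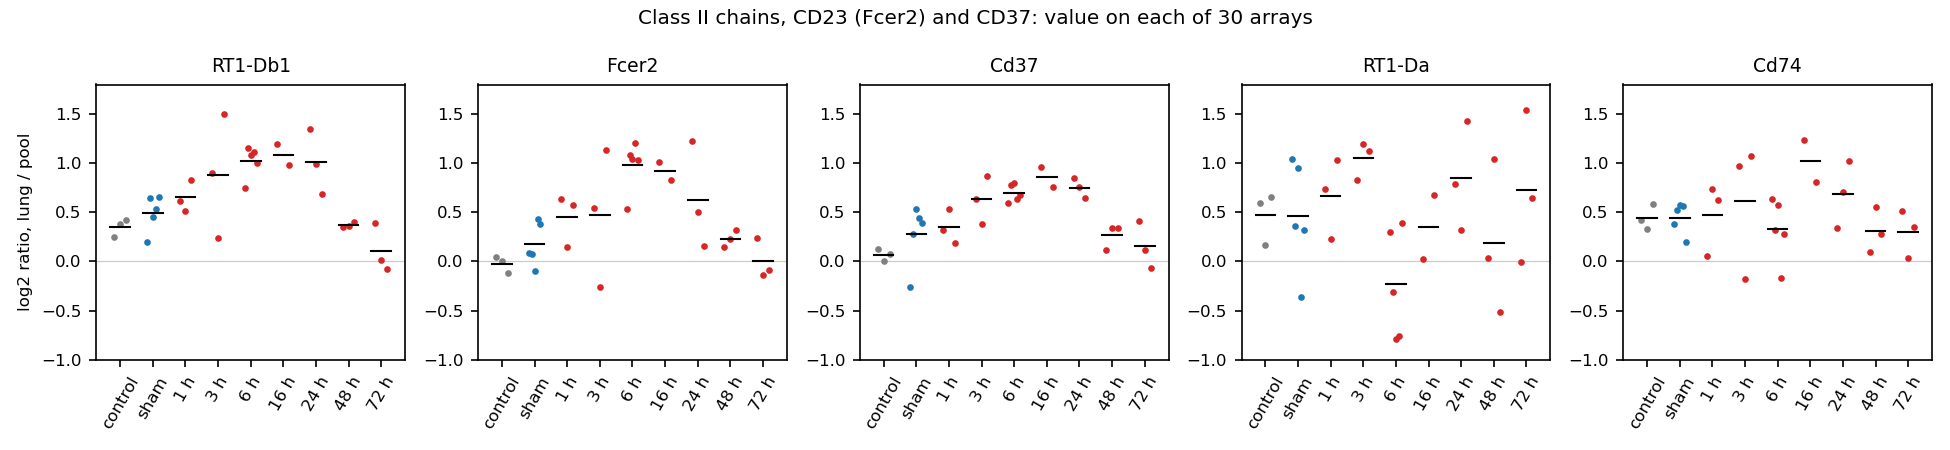
Log2 ratio of lung to pool on each of 30 arrays for RT1-Db1, Fcer2, Cd37, RT1-Da and Cd74, with group means as bars; grey is control, blue is sham and red is after hemorrhage. RT1-Db1, Fcer2 and Cd37 lie above all sham arrays at 6 h and 16 h, while RT1-Da has a mean of -0.23 at 6 h.

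Genes that prepare peptides for MHC molecules or control class II were measured for 20 of 29 listed. Psme2, a subunit of the interferon-induced proteasome activator, rose at 3 h (0.95 ± 0.21, adjusted p = 0.0186). Ctss (cathepsin S), which trims the invariant chain, fell at 72 h (-1.18 ± 0.23, adjusted p = 0.00384) and was higher early than late (0.56 ± 0.14, adjusted p = 0.0180). Both passed the joint test, and no other listed gene was called at any time. Of all features, 2.8% were called at 3 h, 5.91% at 72 h, 5.69% in the joint test and 7.04% early against late. The median over the list stayed between -0.04 and 0.11 of sham.

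Among the Fc receptors, the inhibitory IgG receptor Fcgr2b rose at 24 h. It read -1.09, -0.79 and 0.49 in controls, -1.30, -3.02, -0.61, -0.86 and -1.16 in sham lungs, and 2.30, 0.29 and 0.44 at 24 h. All 24 h arrays lay above all sham arrays, by 2.40 ± 0.62 on average (adjusted p = 0.0314), but the second and the third lay within the controls. Sham differed from control by -0.93 ± 0.62 (adjusted p = 0.999). Of 60 spot values of Fcgr2b, 2 lay at or below a linear ratio of 0.05, and the call at 24 h held with low ratios left out. Without the first 24 h array the difference was 1.76 (adjusted p = 0.144), and the call was also lost without the third 24 h array or sham replicate 1, 3 or 6. At 72 h Fcgr2b read -0.11, 1.33 and 0.47, again above all sham arrays, with a difference of 1.96 ± 0.62 (adjusted p = 0.0589). The first and the third of these also lay within the controls. Fcgrt, the neonatal Fc receptor that also binds β2-microglobulin, differed by 0.95 ± 0.52 at 72 h (adjusted p = 0.292), and Fcer1a by 0.94 ± 0.47 at 48 h (adjusted p = 0.316).

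Of 9 killer lectin-like receptors, Klrh1 fell at 3 h, and its early mean lay below its late mean. It read -2.11, -0.73 and -0.63 in controls and -1.72, -0.73, -0.76, 0.05 and -0.34 in sham lungs. The 3 h values were -1.58, -2.12 and -2.56, of which the last 2 lay below every array of the other groups, while the first lay within the sham range. The 6 h values were -0.73, -0.65, -0.47, -0.68 and -1.06, and the 24 h values -1.39, -0.19 and -0.44. The values were 0.67 and -0.06 at 16 h, 0.72, -0.31 and 0.21 at 48 h, and 0.25, -0.85 and -0.37 at 72 h. The arrays of each of these times overlapped those of sham, and none of the times passed (0.03 ± 0.38 at 24 h, adjusted p = 0.975, and 1.01 ± 0.44 at 16 h, adjusted p = 0.301). The difference at 3 h was called (-1.38 ± 0.38, adjusted p = 0.0482), a call lost in 5 of 8 fits without 1 array (without sham replicate 3, 5 or 6, or the second or the third 3 h array; up to 0.112). The early mean was below the late mean (-0.98 ± 0.24, adjusted p = 0.0153), and this call held in each of 20 fits without 1 array (highest adjusted p 0.0387). The joint test was passed (adjusted p = 0.0251), but not without the third 3 h array (0.0515).

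The other killer lectin receptors were not called. Klrb1a, an NKR-P1 receptor, read 0.46, 0.48 and 0.52 at 72 h, above all sham arrays (-0.15 to 0.40), and -0.67, -0.93 and -0.58 at 3 h, below all of them. Its differences were 0.44 ± 0.25 and -0.78 ± 0.25 (adjusted p = 0.314 and 0.0837). Klrc1 (NKG2A) differed by 1.96 ± 0.64 and Klrc2 (NKG2C) by 1.57 ± 0.56 at 72 h (adjusted p = 0.0658 and 0.0962). The 72 h arrays of both overlapped those of control. Sham differed from control by -0.91 ± 0.73 for Klrc1 and -0.57 ± 0.64 for Klrc2 (adjusted p = 0.999 for each). Klrc2 had 53 of 60 spot values. Klrk1 differed by 1.11 ± 0.55 at 72 h (adjusted p = 0.233). At that time 6 of the 9 receptors lay above sham, beside 51.2% of all features. The other 3 lay below it, namely Klrb1b (-0.39 ± 0.37), Klrg1 (-0.13 ± 0.38) and Klrb1c (-0.12 ± 0.35), with adjusted p = 0.569, 0.875 and 0.876. At 48 h, 6 of the 9 also lay above sham, beside 50.5% of all features. The median difference over the 9 receptors was 0.69 at 48 h and 0.44 at 72 h. Klrc2 differed by 1.79 ± 0.56 at 48 h (adjusted p = 0.107). Klrb1b lay below sham at all 7 times, with a difference of -0.72 ± 0.25 for their mean (adjusted p = 0.0996). The natural killer marker list (6 of 7 genes measured, of which Klrb1a, Klrc1 and Klrk1 belong to the set) had a median of 0.04 to 0.51 on the 72 h arrays and -0.87 to -0.40 on the sham arrays. Nkg7 of that list, which is not in the set, differed by -0.55 ± 0.28 at 72 h (adjusted p = 0.254). The other measured genes of the list lay above sham there. Like RT1, the Klr genes include close relatives that a cDNA spot may not separate.

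None of the 11 T cell antigens passed a test between lung groups. Cd4, the helper T cell coreceptor, read 0.23 to 1.06 in sham lungs and -0.52 and 0.11 at 16 h, and differed by -0.77 ± 0.32 (adjusted p = 0.290). Cd247, the ζ chain of the T cell receptor, differed by -0.79 ± 0.31 at 16 h (adjusted p = 0.252). Cd28, a costimulatory receptor, read 0.45, 1.05, 0.61, 1.27 and 0.92 at 6 h against -0.31 to 0.70 in sham lungs, a difference of 0.71 ± 0.25 (adjusted p = 0.155). The largest T cell difference, 2.27 ± 1.09 for Cd8b at 3 h (adjusted p = 0.219), came from arrays at 0.82, 4.10 and -0.36. Cd8b varied widely elsewhere too, from -3.09 to 3.25 at 6 h. The T cell marker list (6 of 11 genes measured, all but Il2ra members of the set) had a median of -0.43 to 0.04 on sham arrays and 0.03 to 0.55 at 72 h.

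Of the B cell and costimulatory antigens, none was called. Cd80, a ligand of Cd28 on antigen-presenting cells, read 0.49, 0.71 and 1.16 at 72 h, above all sham arrays (-0.03 to 0.42), by 0.61 ± 0.20 (adjusted p = 0.0709). Its partner Cd86 read -0.76, -2.11 and -1.53 there, against -0.89 to 0.15, and differed by -1.04 ± 0.42 (adjusted p = 0.135). Cd200, which restrains myeloid cells, read 0.62, 0.57 and 0.84 at 72 h and -0.23 to 0.28 in sham lungs (0.64 ± 0.35, adjusted p = 0.290). Cd24 differed by at most -0.59 ± 0.34, at 6 h (adjusted p = 0.344).

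Among the myeloid antigens, Cd53, a tetraspanin of leukocytes, rose at 72 h. It read -1.33, -0.26 and -0.10 in controls, 0.68, -0.51, 0.54, -0.51 and -1.30 in sham lungs, and 0.97, 2.24 and 1.24 at 72 h. All 72 h arrays lay above all sham arrays, with a difference of 1.71 ± 0.43 (adjusted p = 0.0224). It was 1.33 without the second 72 h array (adjusted p = 0.174), and the call was also lost without the third. At 16 h Cd53 read -1.61 and -0.71, and the joint test was passed (adjusted p = 0.0457) but lost in 15 of 27 fits without 1 array (up to 0.119, without the first 16 h array). Cd14, the endotoxin coreceptor of monocytes, read 0.70, 0.86 and 0.81 at 1 h and 0.91, 0.77 and 1.30 at 3 h, all above the controls (0.15 to 0.34) while all but the third 3 h array lay within the sham range (0.16 to 1.00). Its difference from sham at 3 h was 0.49 ± 0.26 (adjusted p = 0.267).

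Cd93 lay below its unbled values at 3 h and at 16 h to 72 h but was not called. It read 0.96, 0.75 and 1.92 in controls and 0.82, 1.15, 0.89, 0.86 and 1.19 in sham lungs. It read 0.74, 0.65 and 0.69 at 3 h, and at 6 h it overlapped sham (-0.50 to 1.29). It read 0.07 and 0.32 at 16 h, 0.52, -0.15 and -0.54 at 24 h, 0.22, -0.24 and 0.05 at 48 h, and 0.49, 0.64 and 0.14 at 72 h. Every array of 3 h, 16 h, 24 h, 48 h and 72 h lay below every sham and control array. The difference was -0.29 ± 0.32 at 3 h (adjusted p = 0.608) and -1.04 ± 0.32 at 24 h (adjusted p = 0.0710) and the joint test gave 0.139. Cd93 and Cd96 passed at 24 h when the arrays were not centred on their medians. Leaving out the centring moved the median of all features at 24 h from 0.04 to -0.15, and the split of all calls there from 51 higher and 162 lower to 30 higher and 389 lower. At 3 h the split of all calls was 63 higher and 105 lower, 54 and 146 without centring, and 26 and 76 after quantile normalization.

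Of the broadly expressed antigens, Cd55 (decay-accelerating factor, which stops complement on the body's own cells) rose at 72 h. It read -1.57, -0.96 and -0.54 in controls, -1.30, -2.09, -1.44, -2.12 and -1.90 in sham lungs, and -0.90, -0.02 and 0.32 at 72 h. All 72 h arrays lay above all sham arrays, by 1.57 ± 0.37 (adjusted p = 0.0160), but the first lay within the controls. The call was lost without the second or the third 72 h array (1.31 and adjusted p = 0.141 without the third). The 48 h arrays (-0.28, -0.64 and -0.71) also lay above all sham arrays (1.23 ± 0.37, adjusted p = 0.0900), but the second and the third lay within the controls. Sham differed from control by -0.75 ± 0.37 (adjusted p = 0.999). The other complement regulators, Cd46 and Cd59b, differed at 72 h by 0.20 ± 0.62 and -0.44 ± 0.35 (adjusted p = 0.879 and 0.481).

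Cd151, a tetraspanin that partners laminin-binding integrins, fell at 72 h. It read 0.84, 1.08 and 0.66 in controls, 1.26, 1.19, 1.29, 0.87 and 1.15 in sham lungs, and 0.50, 0.25 and -0.26 at 72 h. The 16 h arrays (0.51 and 0.40), the 48 h arrays (0.14, 0.53 and 0.24) and the 72 h arrays all lay below every sham and control array. The difference at 72 h was -0.99 ± 0.28 (adjusted p = 0.0388), lost in 6 of 8 fits, without sham replicate 1, 3, 4 or 6 or the second or the third 72 h array (up to 0.248). The early mean was above the late mean by 0.60 ± 0.18 (adjusted p = 0.0378), a call lost in 11 of 20 fits without 1 array (up to 0.0953, without the third 24 h array). Cd47, a signal that restrains phagocytes, read -0.56, 0.12 and -0.89 at 3 h against 0.03 to 0.62 in sham lungs, so that 1 of the 3 arrays overlapped sham (-0.90 ± 0.29, adjusted p = 0.0825). Cd244l1, whose symbol places it beside the natural killer receptor CD244, fell at 24 h. It read 0.43, 0.98, 0.42, 0.51 and 0.69 in sham lungs and -0.19, -0.12 and -0.88 at 24 h, below all of them (-0.9998 ± 0.26, adjusted p = 0.0345). Without the third 24 h array the difference was -0.76 (adjusted p = 0.248), and the call was also lost without sham replicate 3, 5 or 6.

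Genes of antigen and Fc receptor signalling were measured for 15 of 30 listed. Of the 15, 2 were called at 24 h, 2 at 72 h and 3 early against late, where 3.55%, 5.91% and 7.04% of all features were called. The median over the list ran from -0.30 (3 h) to 0.25 (72 h) of sham and was -0.14 early against late. The leukocyte phosphatase Ptprc (CD45), whose symbol the rule does not take, fell at 24 h (-1.23 ± 0.24, adjusted p = 0.00579) and at 72 h (-1.08 ± 0.24, adjusted p = 0.0122). Prkcb, a kinase of B cell receptor signalling, fell at 24 h (-0.98 ± 0.20, adjusted p = 0.00966), and Vav1, an exchange factor of lymphocyte receptors, rose at 72 h (1.36 ± 0.35, adjusted p = 0.0242). Between early and late lungs, Ptprc was higher early (0.67 ± 0.15), and the adaptor Lcp2 (-0.69 ± 0.18) and the lipid phosphatase Inpp5d (-0.49 ± 0.15) were lower early (adjusted p = 0.0103, 0.0227 and 0.0407). Ptprc also fell over the mean of the 7 times (-0.77 ± 0.16, adjusted p = 0.0120).

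Several marker lists of other cells had medians outside their sham range at some times. Those of endothelium and of macrophages and monocytes overlapped sham at every time. At 72 h, 5 of 10 lung epithelial genes fell, and their median over the list was 0.90 to 1.27 per array against 1.59 to 2.58 in sham lungs. Neutrophil genes (4 of 9 measured) had a median of -0.07 to 0.28 in sham lungs, 1.09 to 1.43 at 3 h, 0.61 to 2.24 at 24 h and 0.35 to 1.96 at 72 h. Of these, Cxcr2 rose at 3 h (1.71 ± 0.47, adjusted p = 0.0483) and Mmp8 at 72 h (4.37 ± 0.70, adjusted p = 0.00164). At 72 h Cxcr2 lay below sham (-0.25 ± 0.47), and S100a8 (0.07 ± 0.37) and S100a9 (1.94 ± 0.71) above it. Their adjusted p was 0.805, 0.936 and 0.105. The general leukocyte list (7 of 8 measured, among them Cd53, Cd37, Cd48 and Cd52 of the set) had a median of 0.38 to 0.53 in sham lungs and -0.07 to 0.24 at 72 h. Its genes were split at 72 h, with Cd53 called higher and Ptprc called lower. Cd48 (0.36) and Cd52 (0.37) lay above sham, and Coro1a (-0.82), Laptm5 (-0.40) and Cd37 (-0.12) below it, none of them called. Among endothelial genes (3 of 8 measured), Plvap fell at 24 h (-1.20 ± 0.32, adjusted p = 0.0391), and at 72 h Kdr rose (0.86 ± 0.24, adjusted p = 0.0385) and Car4 fell (-2.14 ± 0.60, adjusted p = 0.0358). Their median over the list was 0.11 to 1.03 in sham lungs, 0.32 to 1.13 at 24 h and 0.48 to 1.03 at 72 h. Macrophage and monocyte genes were measured for 3 of 9 listed, Cd14 of the set among them. The median of these was 0.16 to 2.16 in sham lungs and -0.93 to 1.04 at 72 h. Neither of the 2 tested was called between lung groups. Mast cell and basophil genes (7 of 7 measured, Fcer1a of the set among them) had a median of -1.06 to -0.33 in sham lungs, 0.02 to 0.09 at 48 h and -0.11 to -0.08 at 72 h. The mast cell protease Mcpt10 rose at 48 h (1.63 ± 0.38, adjusted p = 0.0421) and at 72 h (2.14 ± 0.38, adjusted p = 0.00204), and Kit rose at 72 h (1.11 ± 0.28, adjusted p = 0.0218). The rest of the list was not called at 72 h. Ms4a2 (-0.32 ± 0.34) and Mcpt1 (-0.10 ± 0.32) lay below sham there. Cpa3 (0.14 ± 0.39), Tpsab1 (0.25 ± 0.35) and Fcer1a (0.54 ± 0.47) lay above it. Red cell precursor genes (4 of 6 measured) had a median of -0.96 to -0.60 in sham lungs and -0.04 to 0.21 at 72 h. Among them Rhag rose at 24 h (1.55 ± 0.36, adjusted p = 0.0190) and at 72 h (1.54 ± 0.36, adjusted p = 0.0160), while Gata1 fell at 3 h (-1.83 ± 0.37, adjusted p = 0.0120) and at 72 h (-1.24 ± 0.37, adjusted p = 0.0469). The part of these shifts in the differences above was not tested.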

How the data were processed

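Lung RNA was compared with pooled organ RNA on 32 arrays of 13056 spots. The values deposited by the authors are log2 ratios of lung to pool, with 12151 to 12895 values per array. The linear ratios were rounded to 0.01. For dyes, scanner and normalization, what was done is not stated in the labels or headers. Lung and liver genes set which way the ratio runs. The labels state 10 pool organs and name 9. Each array's median (-0.377 to 0.0566) was subtracted and spots of a gene were averaged. Genes were named from the platform annotation (10652 spots with 1 symbol, 16 with several, 2388 with none). All 9 groups entered 1 limma fit (version 3.58.1, R 4.3.3) on 30 arrays, over 5993 features with values on at least 2 arrays of every group, with Benjamini-Hochberg adjustment and a call at adjusted p under 0.05. The fit was tested on simulated data. The number of arrays limits the precision. Alternatives were all 32 arrays, no centring, quantile normalization, no filter, low ratios left out, probes kept apart, a replicate block and leaving out each array. The genes described, their roles and the gene and marker lists were chosen with earlier results of these data known. The naming rule took the genes called between lung groups, the 3 of each role with the smallest joint p, the 3 highest and 3 lowest against the pool, and a fixed list of class II chains and lineage markers, 36 genes in all. Others are named where a role count, a range or a promoter match rests on them, chosen after their values were seen. Numbers shared between groups did not pair the arrays.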

Additional observations from a re-analysis of the deposited data

Results flagged for a closer look

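In groups of 5 arrays, 7 of 72 groups tested for the named genes held 1 array whose gap to its nearest neighbour, divided by the range of the group, passed Dixon's critical value, which chance alone passes in about 1 in 20 groups. B2m read 2.65 on sham replicate 4, above the other sham arrays. Cd47 read 0.0285 on that array, below the others. Fcgr2b read -3.02 on sham replicate 3, the lowest of its group. At 6 h, Cd200 read 0.81 and Klrc2 read -1.96 on replicate 5. RT1-Ba read 1.75 on the 6 h replicate 4, and Fcer2 read 0.54 on the 6 h replicate 1.

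The mean of 1, 3 and 6 h differed from the mean of 24, 48 and 72 h for 3 genes by limma's test of that difference. It was higher early for B2m by 1.32 ± 0.30 (SE; adjusted p = 0.0111) and for Cd151 by 0.60 ± 0.18 (adjusted p = 0.0378), and lower early for Klrh1 (-0.98 ± 0.24, adjusted p = 0.0153).

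On the 2 arrays left out for their liver signal, some genes lay outside the range of the 30 arrays used. On sham replicate 2, 6 genes lay above and 14 below it, with Fcer2 at 1.67 and Cd74 at -3.48. On the 16 h replicate 3, 3 genes lay above and 7 below it, with Cd28 at 2.04, RT1-DMb at 1.83 and Cd247 at 1.06. The part of the liver signal in these values was not tested.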

How the results depend on the processing

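Counts of the 60 genes called are given here, and of the 15 calls between lung groups none reversed under any of the 7 alternatives. With all 32 arrays, 0 genes were called at 3 h, 0 at 24 h, 2 at 72 h and 2 in the joint test. Quantile normalization gave 1 at 3 h and 8 at 72 h, which added B2m, Cd80, Fcgr2b and RT1-Bb, and 6 in the joint test. Having no filter gave 1 at 3 h, no centring gave 4 at 24 h, and leaving out low ratios gave 1 (Fcgr2b) over the mean of 7 times, 5 at 72 h and 6 in the joint test. Keeping probes apart added RT1-Db1 at 3 h (3 genes) and early against late (4 genes). The cause of these shifts was not tested. Leaving out 1 array at a time gave 26 to 33 genes against the pool, 0 to 3 at 3 h, 0 to 1 at 6 h, 0 to 3 at 24 h, 0 to 8 at 72 h, 1 to 8 in the joint test, 0 to 2 over the mean of 7 times and 2 to 6 early against late. It gave 0 to 0 for sham against control, 1 h, 16 h and 48 h.

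With the replicate number as a block, 0 genes were called at 3 h, 1 at 24 h, 0 at 72 h, 0 in the joint test and 2 (B2m and Klrh1) early against late, and 3 of the 15 calls held. The numbers do not pair the arrays. Deviations of 94 same-numbered pairs had a median correlation of -0.0083 (-0.374 to 0.320), against 0.0017 for 302 other pairs, and 5 of 30 arrays correlated best with their own number.

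With 2 to 5 arrays a group, a gene that misses the threshold is not shown to be unchanged. The sham arrays are not matched in time.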
